A study of Bos taurus with 10 samples.

Results

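The genes described here encode parts of the machinery that attaches chromosomes to the spindle and holds them together until they part, namely the spindle assembly checkpoint, the kinetochore and centromere, the chromosomal passenger complex with the Aurora kinases, the Polo-like (PLK) and NIMA-related (NEK) kinases, cohesin and condensin. They were chosen by symbol, from 26 listed names and from the families CENP, PLK, NEK, SMC, STAG and NCAP. The rule itself used no measured value, but it was set with earlier results of these data known. The bovine array carried 73 such probe sets for 48 genes, out of 9155 genes with a single symbol. Of these 48 genes, 29 had 1 probe set and 19 had several. The listed names MAD1L1, TTK, NUF2, SPC25, INCENP, REC8 and AURKC matched no probe set with a single symbol and were not analysed here.

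A kinetochore is built on each centromere and binds the ends of spindle microtubules, and kinetochores without a stable attachment recruit the BUB and MAD proteins of the checkpoint, which hold back the anaphase-promoting complex. Cohesin rings keep sister chromatids together, shugoshin shields the rings at the centromere through the first meiotic division, and separase cuts them. A bovine oocyte rests in prophase of meiosis I, with its transcription largely silent by the end of growth, and during maturation uses stored transcripts to condense its chromosomes, build a spindle and arrest again in metaphase of meiosis II.

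Pools of oocytes before and after in vitro maturation (IVM) were compared, 5 pools of immature and 5 of IVM oocytes, each on its own Affymetrix bovine array. All oocytes came from follicles of 3 to 8 mm on ovaries of slaughtered cows, and each of the 5 replicates was a day of ovary collection. Arrays of equal replicate number were taken as the same day, which the labels do not state. A day below means such a pair. Immature oocytes were stripped of cumulus cells at 0 h. IVM oocytes were stripped after 24 h at 39°C under 5% CO2 in TCM-199 with 10% fetal calf serum and 10 ng/ml of epidermal growth factor, so that time, culture, serum and growth factor all differed together between the groups. Genotype, breed and age of the cows, and a selection of IVM oocytes by polar body, were not given in the sources used here. Each array measured a pool of 100 oocytes, frozen in tubes of 10, and a change in every oocyte and a change in a share of them cannot be told apart. From each pool, 100 ng of RNA was amplified by a kit that primes from the poly(A) tail, so the amount of a transcript and the length of its tail cannot be told apart either.

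The array values are log2 values from FARMS, an algorithm that combines the probes of a probe set and returns a nearly flat line where those probes do not vary together. A probe set is called varying here if its values spanned at least 0.01 over the 10 arrays, which 9460 of the 24016 tested probe sets did. Arrays of 1 group correlated with each other at r = 0.948 to 0.993 (immature) and 0.890 to 0.988 (IVM), and arrays of different groups at 0.688 to 0.819, over all probe sets. IVM replicate 4 stood apart from the other IVM arrays. Over 14 varying markers of cumulus and granulosa cells, the immature arrays had a mean log2 value from 7.06 (replicate 2) to 8.84 (replicate 4) and the IVM arrays from 8.45 (replicate 5) to 10.42 (replicate 4). The higher IVM mean came from a few genes of cumulus expansion, TNFAIP6 (difference 10.86), PTX3 (6.38) and VCAN (3.96), while 8 of the 14 markers had a negative difference, among them FST (-1.79), CYP19A1 (-1.38) and INHA (-0.91), and the median of the 14 was -0.33. The other 3 markers of this list, CD44, FOXL2 and LHCGR, hardly varied. Oocyte markers, 8 of 8 varying, lay between 12.69 and 13.21 on the immature arrays and between 10.29 (replicate 4) and 11.66 on the IVM arrays, and of them the zona gene ZP3 and the maternal gene NLRP5 passed an adjusted p of 0.0001 as lower. The 8 did not move as 1 class, as 5 had a negative and 3 a positive difference. The positive ones were KPNA7 (0.37 without overlap, limma adjusted p = 0.00575), BMP15 (0.19, 0.717) and MOS (0.14, 0.707). All 4 blood and immune markers hardly varied. Poly-A control probe sets had a mean of 7.02 ± 0.15 (SD, n = 5) on the immature and 7.95 ± 0.20 (n = 5) on the IVM arrays (two-sided exact permutation test, p = 0.00794, the smallest these groups allow). A scale set by these controls would thus lower every IVM difference by 0.94. The immature mean was close to the median log2 value of the immature arrays (7.04 to 7.10), a low signal for a scale. Whether these controls were added to the RNA was not stated in the sources used here. The hybridization controls were also higher on the IVM arrays, by 0.90 with overlapping groups (two-sided exact permutation test, p = 0.0556). Their means were 10.02 ± 0.73 (SD, n = 5) on the immature and 10.92 ± 0.19 (n = 5) on the IVM arrays. The low hybridization controls were those of immature replicates 1 to 3 (9.38, 9.73 and 9.39). Immature replicates 4 and 5 (10.85 and 10.75) lay within the IVM range of 10.75 to 11.22. The poly-A controls were lower on all 5 immature arrays (6.85 to 7.24, against 7.73 to 8.23 on the IVM arrays). The causes of these shifts were not tested.

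Of the 73 member probe sets, 50 varied (68.5%, against 39.4% of all tested probe sets), and so did at least 1 probe set of 40 of the 48 genes (83.3% counted on 1 probe set a gene, the one with the highest mean, against 55.9% of all genes). In the limma test of IVM against immature arrays, with Benjamini-Hochberg adjustment over all 24016 probe sets, 10 member probe sets of 9 genes were lower in IVM oocytes at an adjusted p under 0.0001. These were 13.7% of the member probe sets, against a background of 4.81% of all probe sets. None was higher at this threshold, where the background is 0.974%. The study used the same rate of false discovery, but with the SAM algorithm and without non-informative probes, so its counts are not comparable. Among the member probe sets, 10 had an unadjusted p under 0.05 in the higher direction and 30 in the lower. A fit over the varying probe sets alone, with a background of 17.8% lower and 7.24% higher, gave 14 lower and 1 higher member probe set of 50. All 10 called probe sets were among these 14, at a limma adjusted p of at most 5.15e-06 (CENPC). Leaving out arrays, as described below, was done in the fit over all probe sets and not in this one.

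The looser threshold used below is an adjusted p under 0.05 on a varying probe set. By it, 28 member probe sets (38.4%) were lower and 5 (6.85%) higher, against backgrounds of 12.5% and 13.4%. Counted as genes, by the probe set with the highest mean, 22 of 48 (45.8%) were lower and 3 (6.25%) higher, against 21.2% and 16.7%. At 0.0001 the shares over all genes were 8.83% lower and 1.33% higher. The counts by role below are of few genes each and are to be read beside these shares. The lowest immature array lay above the highest IVM array on 26 member probe sets (35.6%, background 11.5%), and the reverse held on 4 (5.48%, background 10.6%). The median difference over the 50 varying member probe sets was -0.56 on the log2 scale, and that over all 9460 varying probe sets was 0.18.

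With the replicate number, taken as the collection day, as a block, no member probe set passed 0.0001 over all probe sets. Over the varying ones 8 were lower and 0 higher, where the backgrounds are 9.83% and 1.82%. Scaling to the poly-A controls turned 15 of the 18 positive member differences negative, and scaling to the median of the varying probe sets, a shift of 0.10, turned 2 of the 32 negative ones positive.

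**Figure D1:**
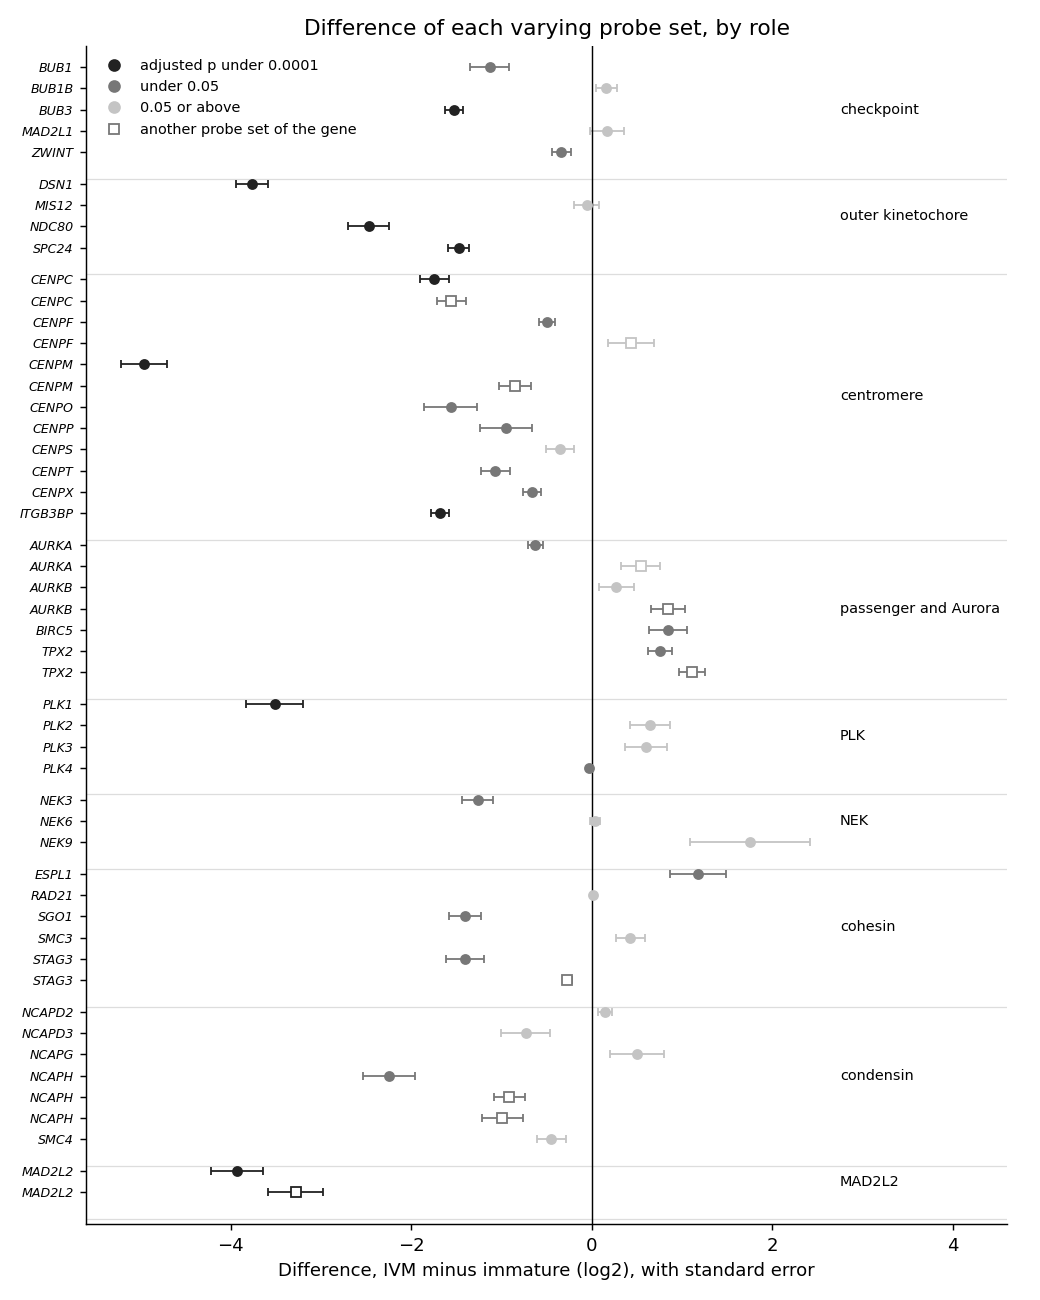
Difference of IVM minus immature oocytes on the log2 scale (x axis) for each of the 50 varying member probe sets, grouped by role, with the standard error from limma as the bar. Filled circles are the probe set with the highest mean of a gene, open squares another probe set of it, and the shade gives the adjusted p. The outer kinetochore and centromere genes lie at or left of 0 apart from the second CENPF probe set, and the passenger and Aurora genes lie right of 0 apart from the first AURKA probe set. On a scale set by the poly-A controls all points move left by 0.94, and 15 of those on the right cross 0.

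In the checkpoint, 5 genes were measured and all varied. BUB3 fell, BUB1 and ZWINT were lower at the looser threshold, and BUB1B and MAD2L1 passed neither. BUB3, a WD-repeat protein that brings BUB1 and BUBR1 to the kinetochore, had log2 values of 12.88, 12.90, 12.80, 12.72 and 12.87 on immature arrays 1 to 5, and 11.42, 11.36, 11.37, 10.94 and 11.47 on IVM arrays 1 to 5. The immature arrays were tightly grouped well above the IVM arrays, and IVM replicate 4 was the lowest array. BUB3 fell by 1.52 on the log2 scale, or 2.88-fold (standard error 0.10, limma adjusted p = 1.03e-05; 9.83e-04 with the day as a block). It kept its call when any single array was left out and also without replicate 4 of both groups (adjusted p = 3.67e-06).

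BUB1, the kinase that marks centromeric chromatin for shugoshin, had 10.57, 10.54, 10.48, 10.36 and 10.60 on the immature arrays and 9.92, 9.31, 9.45, 8.62 and 9.60 on the IVM arrays. The groups did not overlap, and the IVM arrays were spread more widely than the immature ones. Its difference was -1.13 (standard error 0.218, limma adjusted p = 0.00475). ZWINT, which links the outer kinetochore to the dynein-loading RZZ complex, had a mean of 10.13 ± 0.18 (SD, n = 5) before and 9.79 ± 0.17 after maturation (limma adjusted p = 0.0454). Its groups overlapped slightly, its call ended when any 1 of 6 arrays was left out (immature 2, 4 and 5, IVM 1, 3 and 4; highest adjusted p = 0.0970) and it ended with the day as a block (0.0599). BUB1B, which encodes BUBR1, differed by 0.16 (limma adjusted p = 0.364) and MAD2L1, the MAD2 subunit of the inhibitory complex, by 0.17 (0.582), and on both the arrays of the groups were intermixed.

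Outside the checkpoint proper, MAD2L2 shares the HORMA fold of MAD2 and is a subunit of a DNA polymerase for damaged templates. The study picked it for PCR from the results of these arrays, so its direction here is not independent evidence. Its first probe set had 13.01, 12.89, 12.78, 12.38 and 12.55 on the immature and 9.13, 8.46, 8.68, 8.09 and 9.60 on the IVM arrays. A gap of several log2 units parted the groups, and IVM replicate 5 was the highest and replicate 4 the lowest IVM array. The difference was -3.93 (standard error 0.285, limma adjusted p = 1.91e-05; 0.00224 with the block), a 15.2-fold fall. The second probe set had 11.41, 11.56, 11.45, 10.93 and 11.05 against 8.56, 7.58, 7.63, 7.43 and 8.80, with the same IVM arrays at the extremes. It fell by 3.28 (limma adjusted p = 8.17e-05; 0.00547 with the block, and 1.33e-04 with the block over the varying probe sets). The first call held only when immature replicate 4 or IVM replicate 1, 4 or 5 was the array left out, and the second only without IVM replicate 5, with adjusted p up to 1.36e-04 and 4.78e-04.

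**Figure D2:**
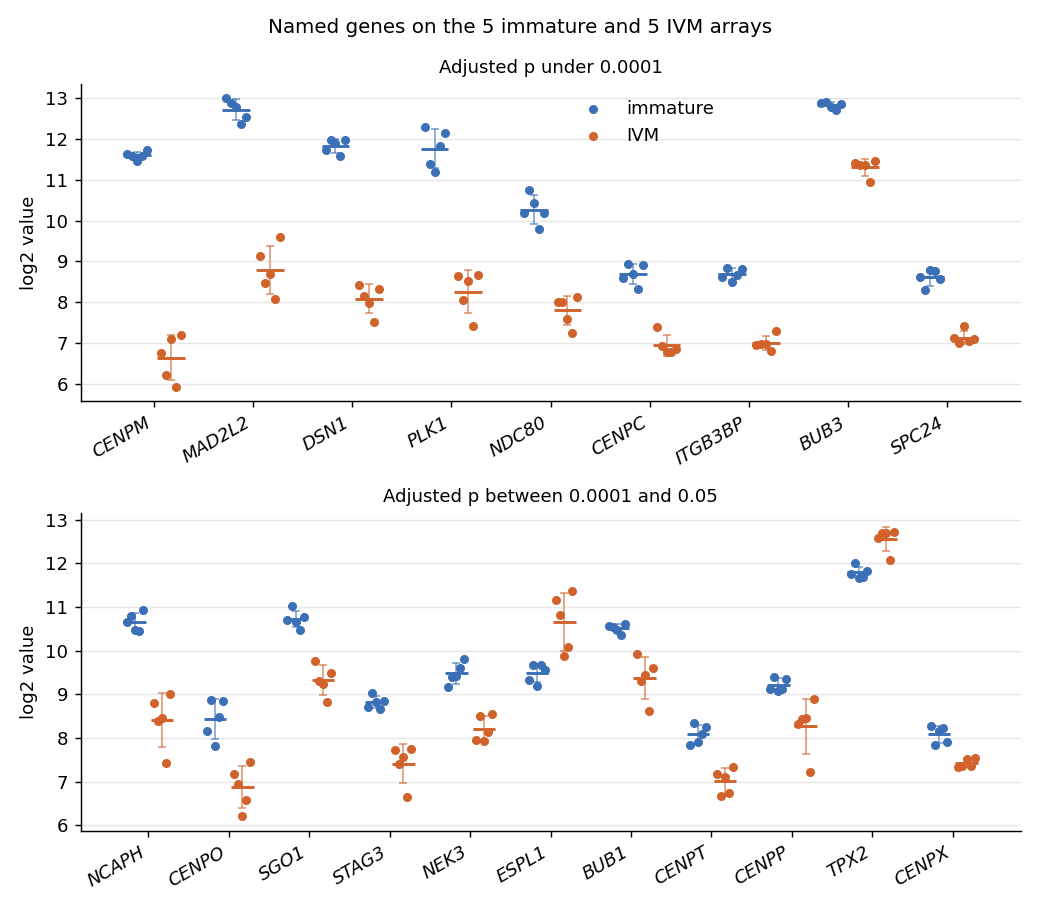
Log2 value on every array (y axis) for the 20 named genes, with the 5 immature arrays in blue and the 5 IVM arrays in orange; the thick line is the group mean and the bar 1 SD. The upper panel holds the 9 genes with an adjusted p under 0.0001 and the lower panel 11 genes between 0.0001 and 0.05. The groups of all 20 genes are apart, and ESPL1 and TPX2 are the ones with the IVM arrays on top, while on a scale set by the poly-A controls TPX2 turns to -0.18. Heights of different genes are values of different probe sets and are not comparable.

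The outer kinetochore gave 3 falls in 4 genes, where 8.83% of all genes were lower at 0.0001. The NDC80 complex, a rod that grips the microtubule, was measured through the members NDC80 and SPC24. The MIS12 complex, which ties that rod to the centromere, was measured through the members DSN1 and MIS12. Of its subunits outside the rule, PMF1 differed by -0.51 without overlap (limma adjusted p = 2.19e-04) and NSL1 hardly varied. DSN1 had 11.74, 11.99, 11.90, 11.59 and 11.99 on the immature arrays and 8.42, 8.15, 7.99, 7.52 and 8.32 on the IVM arrays. Every immature array was far above every IVM array, and replicate 4 was the lowest array of both groups. DSN1 fell by 3.76, or 13.6-fold (standard error 0.175, limma adjusted p = 1.60e-06; 6.68e-04 with the block), with differences within days from -4.07 to -3.31. Its call held without any single array and without replicate 4 of both groups (8.91e-06). Its partner MIS12 differed by -0.05 (limma adjusted p = 0.868), with 6.70, 6.87, 6.99, 6.87 and 6.79 against 6.59, 6.91, 6.70, 7.25 and 6.51. The MIS12 means, 6.84 and 6.79, lay below the median log2 value of every array (7.04 to 7.10). A signal this low can hide a change, so MIS12 cannot be called stable. On MIS12 the groups overlapped fully, and IVM replicate 4, the lowest IVM array for DSN1, was the highest array.

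NDC80 had 10.19, 10.74, 10.43, 9.79 and 10.18 before maturation and 8.00, 8.01, 7.59, 7.25 and 8.13 after it. Replicate 4 was again lowest in both groups, and the groups stood apart. NDC80 fell by 2.47, or 5.55-fold (standard error 0.226, limma adjusted p = 7.40e-05, or 0.00187 with the block). In the fit over all probe sets its call ended whichever of the 10 arrays was left out, at adjusted p from 1.25e-04 to 4.19e-04. Over the varying probe sets alone, with all arrays, its limma adjusted p was 3.88e-06, or 3.40e-05 with the block. SPC24 had 8.61, 8.30, 8.80, 8.77 and 8.56 on the immature arrays and 7.11, 7.01, 7.42, 7.04 and 7.09 on the IVM arrays. The IVM arrays lay close together except replicate 3, which was the highest of them. SPC24 fell by 1.47, or 2.78-fold (standard error 0.116, limma adjusted p = 3.13e-05, or 0.00132 with the block). Its call held only where immature replicate 2 or IVM replicate 3 was left out (adjusted p up to 2.11e-04). Over the varying probe sets alone, with all arrays, SPC24 had 2.57e-06, or 5.14e-05 with the block.

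Among the 12 genes of the centromere, 9 varied, 3 fell, 5 more were lower at the looser threshold and none was higher. Of all genes, 55.9% varied and 8.83% were lower at 0.0001. At the looser threshold 21.2% of all genes were lower and 16.7% higher. CENPM, a small GTPase-like subunit of the constitutive centromere network, gave the largest difference of all 48 genes. Its immature arrays had 11.62, 11.60, 11.47, 11.58 and 11.73, and its IVM arrays 6.75, 6.22, 7.11, 5.93 and 7.20. The immature arrays were nearly level, and the IVM arrays were spread over more than a log2 unit with replicate 4 lowest. CENPM fell by 4.96, or 31.1-fold (standard error 0.250, limma adjusted p = 2.53e-06; 0.00123 with the block), with differences within days from -5.65 to -4.37. The call held without any single array and without replicate 4 of both groups (3.32e-05). A difference of this size lies beyond the 5th percentile of all varying probe sets, which is -2.81.

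CENPC, the platform on which the MIS12 complex sits, had 8.59, 8.93, 8.70, 8.32 and 8.91 on the immature arrays and 7.39, 6.93, 6.77, 6.78 and 6.85 on the IVM arrays. Here IVM replicate 1, not replicate 4, stood off from its group, on the high side. CENPC fell by 1.74, or 3.35-fold (standard error 0.160, limma adjusted p = 7.57e-05; 0.00498 with the block), and the call held only without IVM replicate 1 (adjusted p up to 4.32e-04). It also ended with the block over the varying probe sets (1.63e-04). A second CENPC probe set had 8.06, 8.37, 8.41, 7.69 and 8.06 against 6.88, 6.63, 6.36, 6.39 and 6.54. It differed by -1.56 and missed the stricter threshold narrowly (limma adjusted p = 1.48e-04).

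ITGB3BP, also called CENP-R, had 8.61, 8.84, 8.49, 8.66 and 8.82 on the immature arrays and 6.96, 6.99, 6.98, 6.81 and 7.29 on the IVM arrays, and the arrays of both groups were tightly grouped. It fell by 1.68, or 3.20-fold (standard error 0.10, limma adjusted p = 6.12e-06; 9.28e-04 with the block). Its call held without any single array (adjusted p up to 5.05e-05) and ended without replicate 4 of both groups (1.51e-04). CENPO, which belongs to the same peripheral complex, had 8.17, 8.87, 7.82, 8.47 and 8.86 against 7.18, 6.95, 6.21, 6.58 and 7.45. Both groups were spread widely yet did not overlap, and replicate 3 was lowest in each. CENPO differed by -1.56 (standard error 0.296, limma adjusted p = 0.00430). CENPP, from that complex as well, had 9.13, 9.40, 9.07, 9.11 and 9.35 against 8.31, 8.45, 8.46, 7.21 and 8.90. IVM replicate 4 lay more than a log2 unit under the other IVM arrays. CENPP differed by -0.95 (limma adjusted p = 0.0381), and its call at 0.05 held only without IVM replicate 4 or 5 (highest adjusted p = 0.0841, without immature replicate 5) and ended with the block (0.0648).

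CENPT and CENPX belong to a histone-fold complex that gives the NDC80 rod a foothold separate from CENPC. CENPT had 7.83, 8.34, 7.90, 8.09 and 8.24 before and 7.18, 6.68, 7.12, 6.75 and 7.35 after maturation, and CENPX had 8.28, 7.84, 8.16, 8.24 and 7.91 before and 7.34, 7.37, 7.52, 7.35 and 7.53 after. Neither gene had overlapping groups, and the IVM arrays of CENPX were the tighter ones. The difference was -1.07 for CENPT (standard error 0.160, limma adjusted p = 0.00129) and -0.66 for CENPX (standard error 0.0978, adjusted p = 0.00114). CENPS, the partner of CENPX, differed by -0.35 with overlapping groups (limma adjusted p = 0.140). CENPF, a large protein of the outer corona, differed by -0.49 without overlap (limma adjusted p = 0.00357). No probe set of CENPA, CENPI or CENPN varied, so neither a level nor a change can be given for the centromeric histone and these subunits.

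Of the 4 genes of the passenger complex and Aurora group, AURKA was lower and BIRC5 and TPX2 were higher at the looser threshold, and none passed 0.0001. TPX2, which activates Aurora A and promotes microtubule assembly near chromosomes, had 11.76, 12.00, 11.67, 11.68 and 11.83 on the immature arrays and 12.58, 12.69, 12.69, 12.07 and 12.72 on the IVM arrays. All IVM arrays were above all immature arrays, replicate 4 only just. The difference was 0.76 (standard error 0.135, limma adjusted p = 0.00310). Its second probe set had 9.71, 9.80, 9.57, 9.71 and 10.02 against 11.08, 10.83, 10.74, 10.50 and 11.19, again without overlap. It differed by 1.11 (limma adjusted p = 5.48e-04) and passed 0.0001 in the fit over varying probe sets (6.75e-05), the one member call in this direction in that fit, which the block ended (2.48e-04). Scaled to the poly-A controls, these differences were -0.18 and 0.17.

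BIRC5, which encodes survivin, the subunit that docks the passenger complex on the centromere, had 9.67, 9.62, 9.74, 9.66 and 9.84 on the immature arrays and 10.86, 10.53, 10.55, 9.81 and 11.03 on the IVM arrays. IVM replicate 4 fell within the immature range and the other IVM arrays lay above it. BIRC5 differed by 0.85 (standard error 0.211, limma adjusted p = 0.0164), by 1.02 without replicate 4 of both groups, and by -0.0886 scaled to the poly-A controls. AURKB, the kinase of the complex, had 10.44, 10.31, 10.08, 10.07 and 10.18 against 10.55, 10.59, 10.50, 9.86 and 10.96 on its first probe set. IVM replicate 4 was the lowest array of all, and the difference of 0.27 did not pass (limma adjusted p = 0.358). On its second probe set the values were 8.53, 8.61, 8.44, 8.19 and 8.54 against 9.54, 9.35, 9.39, 8.65 and 9.61, with no overlap. The difference was 0.85 (limma adjusted p = 0.00906), or -0.0902 scaled to the poly-A controls.

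AURKA, the Aurora kinase of spindle poles, had 14.08, 14.13, 13.96, 14.01 and 14.14 on the immature arrays and 13.52, 13.49, 13.46, 13.14 and 13.59 on the IVM arrays of its first probe set. The groups did not overlap, and the difference was -0.63 (standard error 0.0849, limma adjusted p = 7.20e-04). A second AURKA probe set had 12.46, 12.03, 12.03, 11.81 and 11.94 against 12.48, 12.44, 13.05, 12.04 and 12.98. It was higher after maturation on all 5 days, with overlapping groups, and its difference of 0.54 did not pass (limma adjusted p = 0.0976).

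**Figure D3:**
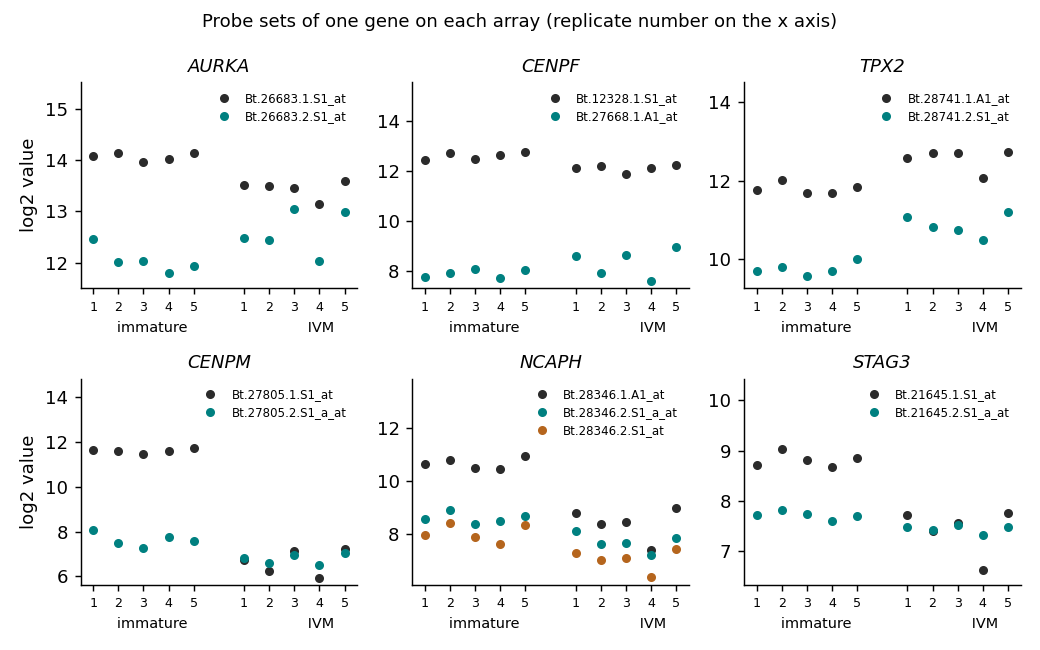
Log2 values (y axis) of all varying probe sets of 6 genes, in a separate colour each, on immature arrays 1 to 5 and IVM arrays 1 to 5 (x axis). The AURKA and CENPF probe sets lie apart in direction, the probe sets of TPX2 move up together, and those of CENPM, NCAPH and STAG3 move down by unequal steps; centring on the poly-A controls turns the first TPX2 probe set to -0.18. Heights of different probe sets are not comparable.

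Whether probe sets of the same gene changed by the same amount was tested in 10 pairs of varying probe sets from 9 genes, with a two-sided exact permutation test of the per-array gap between them and Benjamini-Hochberg adjustment over the 10 pairs. The change differed between the probe sets in 9 pairs, and the smallest p that 5 against 5 arrays allow is 0.00794. For CENPM, the second probe set had 8.08, 7.50, 7.26, 7.78 and 7.56 on the immature and 6.83, 6.57, 6.94, 6.52 and 7.05 on the IVM arrays. It differed by -0.85 (limma adjusted p = 0.00607), and the difference of the first probe set minus that of the second was -4.11 (adjusted exact p = 0.0113). For AURKA this gap was -1.17 (adjusted exact p = 0.0113) and for CENPF -0.93 (adjusted exact p = 0.0198), with opposite signs of the change in both genes. Opposite signs in 2 of 9 genes stand beside a background of 26.9% of 762 genes with several varying probe sets, and no member gene was called in both directions, against 11.4%. The CENPC pair did not differ beyond its spread (adjusted exact p = 0.0794). In the IVM group, the first and second probe sets had means of 6.64 and 6.78 for CENPM and 7.42 and 7.45 for STAG3. The means of the NCAPH probe sets stayed apart, at 8.41, 7.70 and 7.06. The median log2 values of the arrays were 7.04 to 7.10, and whether low signal limited some falls was not tested. Which transcript ends or isoforms these probe sets match was not analysed here.

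Of the Polo-like kinases, PLK1, which acts on the centrosome, kinetochore and cohesin alike, was the one that fell. It had 12.29, 11.39, 11.19, 11.83 and 12.16 on the immature arrays and 8.63, 8.06, 8.51, 7.41 and 8.67 on the IVM arrays. Both groups were spread over about a log2 unit and stayed far apart. PLK1 fell by 3.51, or 11.4-fold (standard error 0.318, limma adjusted p = 6.94e-05; 0.00345 with the block), with differences within days from -4.42 to -2.68. Its call held only without IVM replicate 4 (adjusted p up to 4.02e-04). Over the varying probe sets alone, with all arrays, PLK1 had a limma adjusted p of 3.15e-06, or 6.20e-05 with the block. PLK2 and PLK3, which are better known from stress responses, were higher on all 5 days, by 0.65 (limma adjusted p = 0.0583) and 0.60 (0.0976), with overlapping groups. They did not pass, and both were positive only on the deposited and median scales. PLK4, the trigger of centriole duplication, had a difference of -0.03, with all 10 arrays between 7.26 and 7.34. Its adjusted p of 0.0471 from limma became 0.625 over the varying probe sets alone and 0.129 with the block.

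Among the 4 NEK kinases, NEK3 was lower at the looser threshold. It had 9.17, 9.39, 9.42, 9.60 and 9.82 before and 7.94, 8.50, 7.94, 8.14 and 8.55 after maturation, without overlap, and differed by -1.26 (standard error 0.171, limma adjusted p = 7.05e-04). NEK9, which turns on NEK6 and NEK7 at the spindle poles, had 7.33, 6.55, 8.10, 8.63 and 7.54 on the immature arrays and 8.97, 9.97, 8.62, 11.27 and 8.09 on the IVM arrays. Its highest array was replicate 4 in both groups, and its lowest was replicate 2 among the immature and replicate 5 among the IVM arrays. The cumulus and granulosa markers had the same highest and lowest arrays, and the part of cumulus RNA in this result was not tested. The NEK9 difference of 1.75 did not pass (standard error 0.660, limma adjusted p = 0.0840). NEK6 differed by 0.03 (limma adjusted p = 0.729), and NEK4 hardly varied.

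In the cohesin group, with its protectors and its protease, 5 of 7 genes varied and none passed 0.0001. SGO1, the shugoshin that recruits a phosphatase to guard centromeric cohesin, had 10.71, 11.01, 10.65, 10.48 and 10.78 on the immature and 9.76, 9.30, 9.23, 8.83 and 9.50 on the IVM arrays. Replicate 4 was lowest in both groups, and the groups were apart. SGO1 differed by -1.40 (standard error 0.175, limma adjusted p = 4.59e-04) and passed 0.0001 over the varying probe sets alone (4.44e-05), a call that ended there with the block (2.37e-04). STAG3, the cohesin subunit particular to meiosis, had 8.72, 9.03, 8.82, 8.67 and 8.85 against 7.72, 7.40, 7.56, 6.64 and 7.75. The IVM arrays were all lower, replicate 4 by the widest margin. Its difference was -1.40 (standard error 0.211, limma adjusted p = 0.00131), and a second probe set differed by -0.27 (adjusted p = 0.00285), also without overlap.

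ESPL1, which encodes the protease separase, went the other way. It had 9.34, 9.66, 9.20, 9.66 and 9.56 on the immature arrays and 11.16, 10.82, 9.87, 10.07 and 11.38 on the IVM arrays. The IVM arrays were all above the immature ones, and IVM replicates 3 and 4 were close to them. ESPL1 differed by 1.18, or 2.26-fold (standard error 0.309, limma adjusted p = 0.0204), and by 0.24 scaled to the poly-A controls. Its call ended without immature replicate 1 or 3 (adjusted p up to 0.0512) and with the block (0.0532). The ring subunits RAD21 and SMC3 did not pass. RAD21, the cut subunit of mitotic cohesin, lay between 12.46 and 12.54 on all 10 arrays (difference 0.01, limma adjusted p = 0.571). SMC3 was higher on all 5 days by a mean of 0.43 with overlapping groups (limma adjusted p = 0.0885). SMC1A and SGO2 hardly varied.

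Condensin had 5 varying genes of 7, and NCAPH, the kleisin subunit of condensin I, was the one that passed the looser threshold. NCAPH had 10.65, 10.78, 10.48, 10.44 and 10.92 before and 8.81, 8.39, 8.45, 7.42 and 9.00 after maturation. The groups were well apart and IVM replicate 4 lay about a log2 unit under the next IVM array. It differed by -2.24, or 4.73-fold (standard error 0.286, limma adjusted p = 5.08e-04), and passed 0.0001 over the varying probe sets alone (3.94e-05), but not there with the block (1.50e-04). Its further probe sets differed by -0.91 (limma adjusted p = 0.00417) and -0.99 (0.0116), and the first minus each of these was -1.33 and -1.25 (adjusted exact p = 0.0113 for both). The other condensin I subunits NCAPD2 (0.15, limma adjusted p = 0.220) and NCAPG (0.51, 0.273), the core subunit SMC4 (-0.45, 0.0663) and the condensin II subunit NCAPD3 (-0.73, 0.0776) did not pass. NCAPG2 and NCAPH2 of condensin II hardly varied.

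Without replicate 4 of both groups, BUB3, DSN1 and CENPM kept an adjusted p under 0.0001, and the other 7 called probe sets had values from 1.51e-04 (ITGB3BP) to 7.34e-04 (the second of MAD2L2). The differences of the 10 called probe sets then ran from -4.79 (CENPM) to -1.41 (SPC24), against -4.96 to -1.47 with all arrays.

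Array by array, IVM replicate 4 had the lowest IVM value on 37 of the 50 varying member probe sets, against 37.4% of all varying probe sets, and IVM replicate 5 the highest on 31, against 26.3%. Among the immature arrays, replicate 2 was highest on 26 (38.1% of all) and replicate 4 lowest on 23 (30.4%). These arrays are the ones with the most (replicate 4) and the least (IVM 5, immature 2) mean signal of cumulus and granulosa markers in their groups, and the part of that signal in the member values was not tested. The SD over arrays was larger in the IVM group on 40 of the 50 probe sets (80.0%), close to the 77.7% of all varying probe sets. The median SD was 0.18 in the immature and 0.32 in the IVM group, and without replicate 4 it was 0.18 and 0.22.

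**Figure D4:**
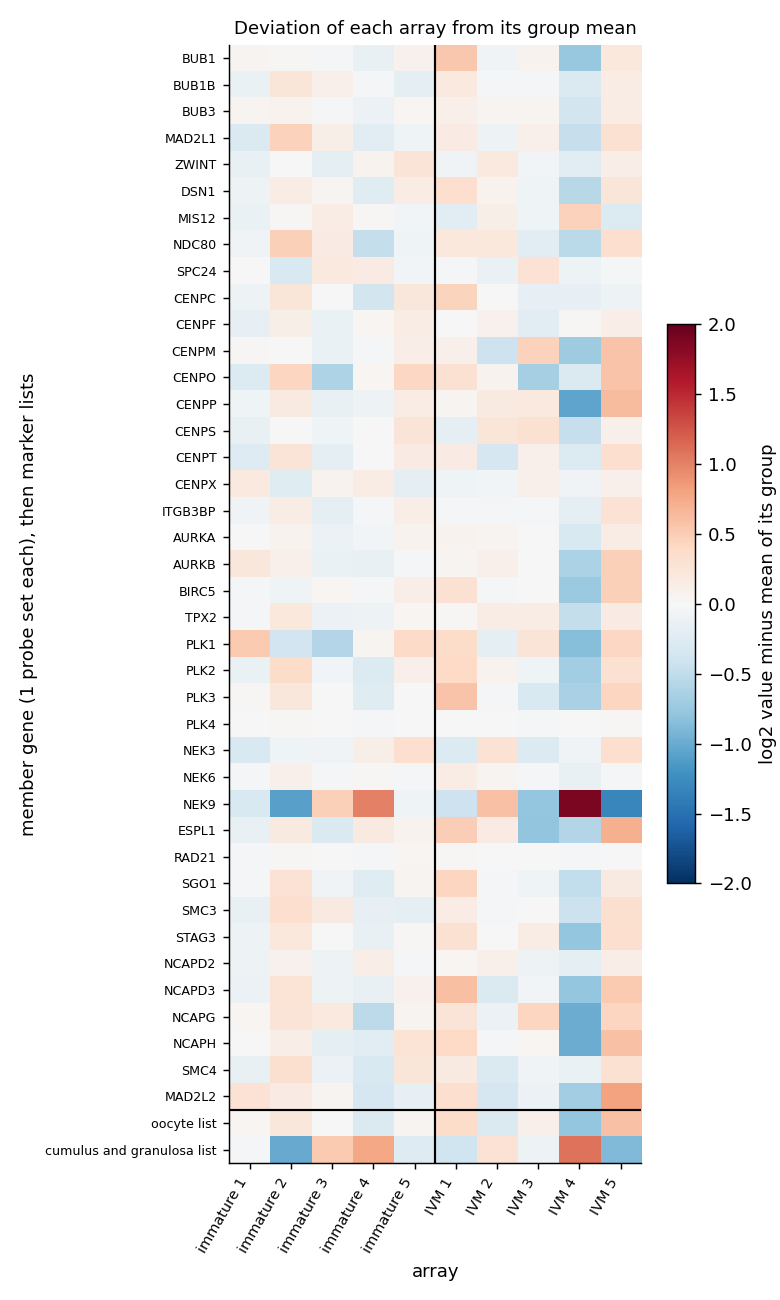
Log2 value of each array minus the mean of its own group (colour), for the 40 varying member genes (1 probe set each) and, at the foot, the mean of the oocyte and of the cumulus and granulosa markers, with the 10 arrays on the x axis. IVM 4 is blue and IVM 5 red for most members and for the oocyte markers, NEK9 and MIS12 show the reverse, and so do the cumulus and granulosa markers.

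A list of other genes of the same machinery, not named by the rule, held 21 genes on the array, 19 of them varying. At 0.0001, 3 were lower and 1 higher (8.83% and 1.33% of all genes), and at the looser threshold 4 were lower and 8 higher (21.2% and 16.7% of all genes). SKA3, counted as higher (1.03, limma adjusted p = 0.00112), had a second probe set called lower (-0.77, 0.0126). ZWILCH, a subunit of the RZZ complex, had 10.21, 10.40, 10.53, 10.35 and 10.52 before and 7.40, 7.54, 7.19, 6.85 and 7.29 after maturation. It fell by 3.15 (standard error 0.131, limma adjusted p = 8.40e-07). SPDL1, or Spindly, the dynein adaptor at the same place, fell by 2.54 (limma adjusted p = 3.35e-05), and OIP5, which helps load the centromeric histone, by 1.66 (6.68e-05). The RZZ subunit ZW10 differed by 0.78 (limma adjusted p = 0.00692), a sign that scaling to the poly-A controls turns, and the third subunit KNTC1 differed by -0.20 (0.302). PPP2R5E, a regulatory subunit of the PP2A phosphatase that shugoshin can recruit, rose by 1.52 (limma adjusted p = 1.24e-05). At the looser threshold CDC20, the activator of the anaphase-promoting complex that the checkpoint inhibits, differed by 1.48 (limma adjusted p = 0.00218) and NIPBL, the cohesin loader, by 1.40 (1.45e-04). All these calls at 0.0001 ended with the day as a block over all probe sets, at limma adjusted p from 7.82e-04 (PPP2R5E) to 0.00311 (OIP5). With the block over the varying probe sets they held, at limma adjusted p from 1.16e-05 (ZWILCH) to 9.72e-05 (OIP5). NIPBL passed there as well (8.55e-05), so that 3 genes were lower and 2 higher. The backgrounds there are 9.83% and 1.82% of the varying probe sets.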

How the data were processed

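Immature and IVM pools were taken from the sample labels, 5 arrays each. Array images had been quantified in GCOS, and the authors then applied quantile normalization and FARMS, so that the deposited log2 values give 1 number for each probe set and array. Without the 112 controls, 24016 probe sets entered a linear model with moderated variance (limma 3.58.1 under R 4.3.3; lmFit, then eBayes), IVM minus immature, with Benjamini-Hochberg adjustment over all of them. The variance prior of this fit had 0.103 degrees of freedom, so the variances were hardly moderated. Over the varying probe sets alone it had 1.86. The call was an adjusted p under 0.0001, after the false discovery rate of the methods, which was applied there with SAM. An adjusted p under 0.05 with a range of at least 0.01 over the arrays was the looser call. Symbols came from the platform annotation, updated through gene identifiers (13263 probe sets) or accessions (2) or kept as they were (27); 86 probe sets had several genes and 10638 were unnamed here. A gene with several probe sets was counted by the one whose mean on the 10 arrays was highest. Values on every array were given for members past 0.0001, then for those past 0.05 without overlap by size of the difference, up to 20 genes; the values of ZWILCH, AURKA, AURKB, BIRC5, MIS12 and NEK9 were added after they were seen.

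The members, lists and tests were chosen with earlier results of these data known. The methods give replicates as days of collection, so equal numbers were taken as pairs. The deviations of same-numbered arrays from their group means correlated at r = 0.143, -0.347, 0.0872, 0.672 and 0.359 for replicates 1 to 5 over the 9460 varying probe sets. Between arrays of unequal number, r ran from -0.703 (immature 4 with IVM 5) to 0.628 (immature 2 with IVM 5). The values thus do not show which arrays share a day, and every result by day or block rests on the numbering. Levels of control transcripts and pairs of probe sets were compared with two-sided exact permutation tests. The fit was tested on simulated data. Alternatives were the day as a block, the varying probe sets alone, other scalings, a trended robust prior, leaving out arrays and other thresholds. The number of arrays limits the precision, whether differences between days of collection include technical ones was not separated, and no column of values was left unused. Tables used pandas 2.3.3 and numpy 2.4.6 under Python 3.11.15, and figures matplotlib 3.10.9.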

Additional observations from a re-analysis of the deposited data

Results flagged for a closer look

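Within the 5 arrays of a group, single values lay far from the others in 5 of 66 groups examined (33 probe sets, 2 groups each), by a gap over 0.71 of the group's whole range. Chance gives about 1 in 20. BUB3 had 10.94 on IVM replicate 4, with the nearest array at 11.36 (gap 0.803 of the range). TPX2 had 12.07 on the same array, with the nearest at 12.58 (0.783), and the second probe set of AURKB 8.65, with the nearest at 9.35 (0.732). SPC24 had 7.42 on IVM replicate 3, with the nearest at 7.11 (0.748). CENPC had 7.39 on IVM replicate 1, with the nearest at 6.93 (0.741). All 5 values were on IVM arrays, and 3 of them were on replicate 4, the IVM array with the highest level of cumulus and granulosa markers, whose part in these values was not tested.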

How the results depend on the processing

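The count of 10 member probe sets lower at 0.0001 went to 0 with the replicate number (day of collection) as a block, to 3 to 8 when single arrays or replicate 4 of both groups were left out (3 without replicate 4, a choice made after seeing the data), to 0 without immature replicates 1 to 3, to 35 with centring on the poly-A controls and to 28 at 0.05. It was 14 over the varying probe sets, 8 there with the block, 11 centred on their median, and 10 with a trended robust prior or a difference of at least 1. The count of 0 higher at 0.0001 was 1 over the varying probe sets and without IVM replicate 4 (0 to 1 over all arrays left out), and 5 at 0.05. At 0.05, a count whose alternatives were also added after seeing the data, the 28 lower ones stayed within 20 to 39, 25 with the block. The 5 higher ones were 10 over the varying probe sets, 11 there with the block, 4 to 11 with arrays left out (11 without IVM replicate 4), 1 without immature replicates 1 to 3 and 0 with poly-A centring. Centring on the poly-A controls turned TPX2 to -0.18 (limma adjusted p = 0.351), BIRC5 to -0.0886 (0.731) and the second AURKB probe set to -0.0902 (0.709), and centring on the median turned PLK4 to 0.0718 (0.322). The block ended the 0.05 calls of ZWINT, CENPP, ESPL1 and PLK4 and changed no other call at 0.05. The causes of these shifts were not tested. A probe set that hardly varies gives neither a level nor a change, which limits 23 member probe sets of 16 genes, 8 of them with no other probe set that varies.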

Other observations

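A list of proliferation markers, drawn up for somatic cells, held 3 measured genes, of which RRM2 hardly varied. TYMS, which makes the thymidine nucleotide, had 10.55, 10.75, 10.16, 10.22 and 10.67 on the immature and 11.53, 11.33, 11.11, 10.70 and 11.63 on the IVM arrays, with overlapping groups and a difference of 0.79 (limma adjusted p = 0.0187). PCNA, the sliding clamp of replication, differed by 0.42 (0.0753). On both genes IVM replicate 4 was the lowest IVM array and IVM replicate 5 the highest, as for most of the spindle and kinetochore genes. The cumulus and granulosa markers ran the other way, with IVM replicate 4 highest (10.42) and replicate 5 lowest (8.45). TYMS and PCNA are thus not read here as a somatic signal.

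The 3 member probe sets that hardly varied, the second of BUB1 and those of NCAPH2 and CENPI, had an adjusted p under 0.05 from limma although their values spanned less than 0.01, as did 1119 of all tested probe sets. They were counted in no call.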
